A study of Mus musculus with 6 samples.

Results

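Cadherins and protocadherins were followed through RNA sequencing of cultured mouse cortical neurons in which Opa1, a mitochondrial inner-membrane fusion protein, had been knocked down. Members were the protein-coding genes whose symbol is Cdh, Pcdh or Pcdhb followed by a digit, which gave 57 genes of the 55471 gene identifiers in the count table. They comprise 23 cadherins, 12 non-clustered protocadherins and the 22 genes of the protocadherin beta cluster. The alpha and gamma clusters were left out because their transcripts share exons. All cultures were wild-type CD1 neurons from cortices of E14.5-15 embryos, grown for 11 days with the mitotic inhibitor cytosine arabinoside at 2 µM and transduced with lentivirus on day 6. The 3 shControl libraries carried a control short hairpin RNA and the 3 shOpa1 libraries carried a hairpin against Opa1, so viral transduction and the mitotic inhibitor were common to both groups. The labels call the libraries biological replicates without naming the animals or cultures, so p-values describe the spread among these 6 libraries, which may be technical.

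Cadherins are calcium-dependent adhesion receptors. Classical cadherins of type I and type II bind partners on the neighbouring cell through their outer domains and bind catenins, which link to actin, through their tails. Non-clustered protocadherins of the delta-1 and delta-2 groups have other tails, and several delta-2 proteins recruit the actin-regulating WAVE complex. Clustered protocadherins are expressed in different combinations by individual neurons and give a neuron a surface identity used in self-avoidance and in synaptic matching. Beta-cluster proteins are each encoded by a single exon and have no constant cytoplasmic part.

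Library totals ran from 24676709 to 32961580 counts. Opa1 itself stood at 201.8, 204.6 and 201.9 CPM (counts per 1000000 counts of the library) in the shControl libraries and at 10.2, 8.64 and 8.50 CPM in the shOpa1 libraries. This is a 22.3-fold lower level (log2 fold change -4.48 ± 0.09 SE, edgeR adjusted p = 2.09e-06). CPM values were scaled by edgeR's TMM factors throughout. Libraries with the same replicate number deviated together from their group means, with correlations of 0.519, 0.537 and 0.666. The numbers were therefore taken as pairs in pair differences and in a blocked fit, but not in the main test. Both replicate 3 libraries stood apart from the other 4 on the second principal component of all tested genes (-38.3 and -36.9 against 17.4 to 20.4). A gene was called changed where edgeR's quasi-likelihood test, with group as its only term, gave a Benjamini-Hochberg adjusted p under 0.05 over all 16562 genes tested. Genes with steady pair differences but a wide spread between replicates can miss that call. A second, blocked fit that adds the replicate number as a term is given wherever it changed the call of a member.

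Of the 57 members, 50 passed the low-count filter. The 7 that did not (Cdh1, Cdh5, Cdh16, Cdh17, Cdh19, Cdh26 and Pcdh12) had 0 to 13 counts per library. Cdh5, the vascular endothelial cadherin, reached at most 0.0967 CPM, and Cdh16, a kidney cadherin, had 1 count in all libraries together. Among the members tested, 15 (30.0%) were called, 3 higher and 12 lower in shOpa1. Over all tested genes 38.9% were called, 18.9% higher and 20.0% lower, against 6.00% and 24.0% of the members. The share of members called was thus below the background share, while more members were called lower than higher. With the replicate block 26 members (52.0%) were called, 5 higher and 21 lower, beside a background of 59.5% (28.8% higher and 30.7% lower). All 15 calls were kept with the same sign under the block, and 11 were added. In bulk RNA, fewer cells of a type and less RNA per cell cannot be told apart.

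Transcript levels are compared between genes per kilobase of exon. In shControl neurons the highest were Pcdh1 at 34.2 ± 7.54 CPM per kb (SD, n = 3), Cdh13 at 29.6 ± 0.77 and Cdh2 at 28.6 ± 3.40, which differed by less than the spread of Pcdh1. Pcdh8 (24.4 ± 3.99), Cdh4 (23.1 ± 9.50) and Pcdh10 (20.3 ± 0.68) came next and also lay within the spread of their neighbours. The highest beta-cluster level was that of Pcdhb9, 6.34 ± 1.67 CPM per kb, which lay within 1 SD of Pcdhb20 at 5.33. The lowest was that of Pcdhb1 at 0.29 CPM per kb.

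**Figure D1:**
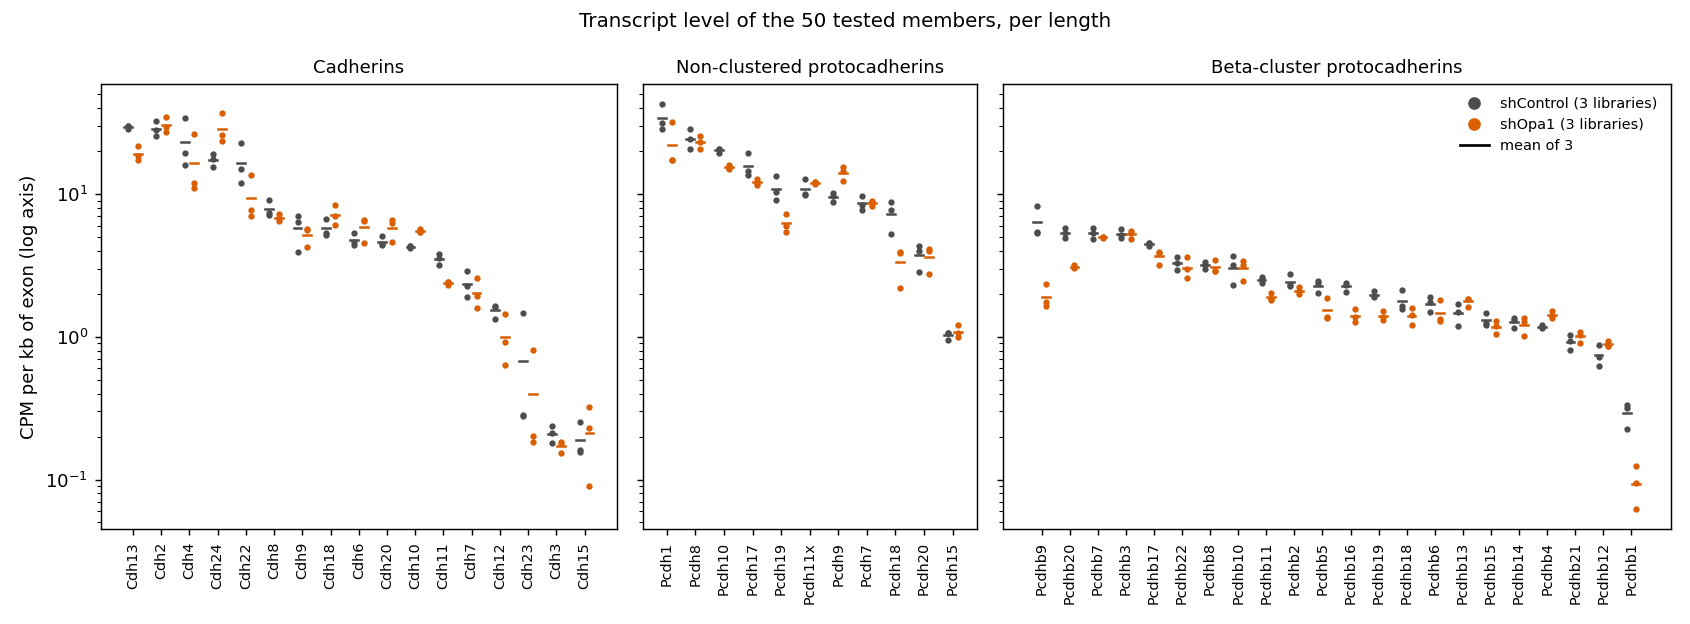
Transcript level of the 50 tested members in CPM per kb of exon on a log axis. Each point is 1 library, each short line the mean of 3, and genes are ordered within their class by the shControl mean; Pcdh1 is highest at 34.2 CPM per kb in shControl, and beta-cluster genes reach at most 6.34 on average.

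Among the 17 cadherins tested, Cdh10 and Cdh24 rose and Cdh13 and Cdh11 fell. The remaining 13 did not pass the test. Over all 17 the median log2 fold change was -0.20, beside -0.01 over all tested genes, and the block gave 4 higher and 7 lower.

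Cdh13 (T-cadherin, ENSMUSG00000031841, chr8:118283733-119324921 on the plus strand, GRCm38) lacks a transmembrane tail, is anchored by a lipid and binds adiponectin. It stood at 322, 336 and 338 CPM in shControl and at 208, 193 and 244 CPM in shOpa1. Every shOpa1 library lay below every shControl library. The level was 1.54-fold lower (means 332 ± 8.70 and 215 ± 26.0 CPM, SD of 3 libraries; log2 fold change -0.63 ± 0.09 SE, edgeR adjusted p = 0.00174).

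Cdh11 (ENSMUSG00000031673, chr8:102632095-102785642 on the minus strand) is a type II cadherin also prominent in mesenchyme. It stood at 31.5, 28.4 and 33.7 CPM in shControl and 21.7, 20.6 and 21.4 CPM in shOpa1, with no overlap. It was 1.47-fold lower (log2 fold change -0.56 ± 0.09 SE, edgeR adjusted p = 0.00225).

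Cdh10 (ENSMUSG00000022321, chr15:18818947-19014236 on the plus strand), a type II cadherin of neurons, stood at 41.9, 43.7 and 43.6 CPM in shControl and 54.2, 56.9 and 54.6 CPM in shOpa1. Libraries within a group lay close together and the groups did not overlap. It was 1.28-fold higher (log2 fold change 0.36 ± 0.06 SE, edgeR adjusted p = 0.00321).

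Cdh24 (ENSMUSG00000059674, chr14:54631231-54641364 on the minus strand), a type II cadherin that binds catenins, stood at 54.1, 66.4 and 61.0 CPM in shControl and 81.9, 90.6 and 128 CPM in shOpa1. The groups did not overlap, and shOpa1 replicate 3 was the highest library. It was 1.66-fold higher (log2 fold change 0.73 ± 0.17 SE, edgeR adjusted p = 0.0152). Its log2 difference was 0.52 in a fit of pairs 1 and 2 and 1.06 in pair 3, and the call was lost without shControl replicate 1 (edgeR adjusted p = 0.0568) and without the low-count filter (0.0817).

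Cdh2 (N-cadherin), the main classical cadherin of neurons and their synapses, stood at 205, 228 and 259.7 CPM in shControl and 218, 237 and 280.2 CPM in shOpa1. The groups overlapped and each shOpa1 library lay above the shControl library of its number. The log2 fold change was 0.09 ± 0.12 SE, and the test was not passed (edgeR adjusted p = 0.607). None of the 4 type I cadherins tested (Cdh2, Cdh3, Cdh4 and Cdh15) was called without the block. Cdh3 and Cdh15 had 10 to 34 counts per library.

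For 7 cadherins edgeR made a call with the replicate block and not without it. Cdh4 (R-cadherin, type I, chr2:179442431-179899373 on the plus strand) stood at 116, 142 and 246 CPM in shControl and 80.3, 86.8 and 189.8 CPM in shOpa1. The groups overlapped because both replicate 3 libraries were high, while each pair was lower in shOpa1. The log2 fold change was -0.50 ± 0.42 SE without the block (edgeR adjusted p = 0.394) and -0.53 with it (edgeR adjusted p = 3.04e-05).

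Cdh22 (type II, chr2:165111507-165234853 on the minus strand) behaved alike, with 44.0, 55.7 and 84.7 CPM in shControl and 25.8, 28.7 and 50.2 CPM in shOpa1. Its log2 fold change was -0.82, with an edgeR adjusted p of 0.0976 without the block and 6.05e-07 with it, and DESeq2 without a block called it lower (adjusted p = 0.0165). Cdh23, which forms the tip links of inner-ear hair cells with Pcdh15, stood at 4.70, 4.78 and 25.0 CPM in shControl and 3.09, 3.42 and 13.6 CPM in shOpa1. Replicate 3 exceeded the mean of the other 2 libraries 5.27-fold in shControl and 4.19-fold in shOpa1. The edgeR adjusted p for Cdh23 was 0.523 without the block and 0.000256 with it.

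Cdh12 and Cdh7 were also called lower by edgeR with the block and not without it (log2 fold changes -0.62 and -0.21, edgeR adjusted p = 0.127 and 0.476 without and 0.0051 and 0.014 with the block). Cdh18 and Cdh20 were likewise called higher with the block (0.32 and 0.33, edgeR adjusted p = 0.125 and 0.112 without and 0.000861 and 0.00671 with the block), and they were also called in pairs 1 and 2 alone (edgeR adjusted p = 0.00911 and 0.00183). All 4 are type II cadherins. The type II genes thus moved in both directions, and their summed level was 399 ± 35.3 CPM in shControl against 418 ± 25.8 CPM in shOpa1 (± SD, 3 libraries each), with overlapping spreads and a higher sum in shOpa1 in each of the 3 pairs.

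Cdh6 and Cdh20 were higher in pairs 1 and 2 and nearly level in pair 3. Cdh6, a type II cadherin that marks sets of neurons and forebrain regions, stood at 39.5, 48.3 and 41.5 CPM in shControl and 59.1, 58.4 and 40.9 CPM in shOpa1. Pairs 1 and 2 were higher in shOpa1 and pair 3 was nearly level. The edgeR adjusted p was 0.175 over all libraries, 0.0503 with the block and 0.00353 in pairs 1 and 2 alone, where 50.9% of all tested genes were called, 24.8% higher and 26.1% lower. That fit called 7 members higher and 19 lower.

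**Figure D2:**
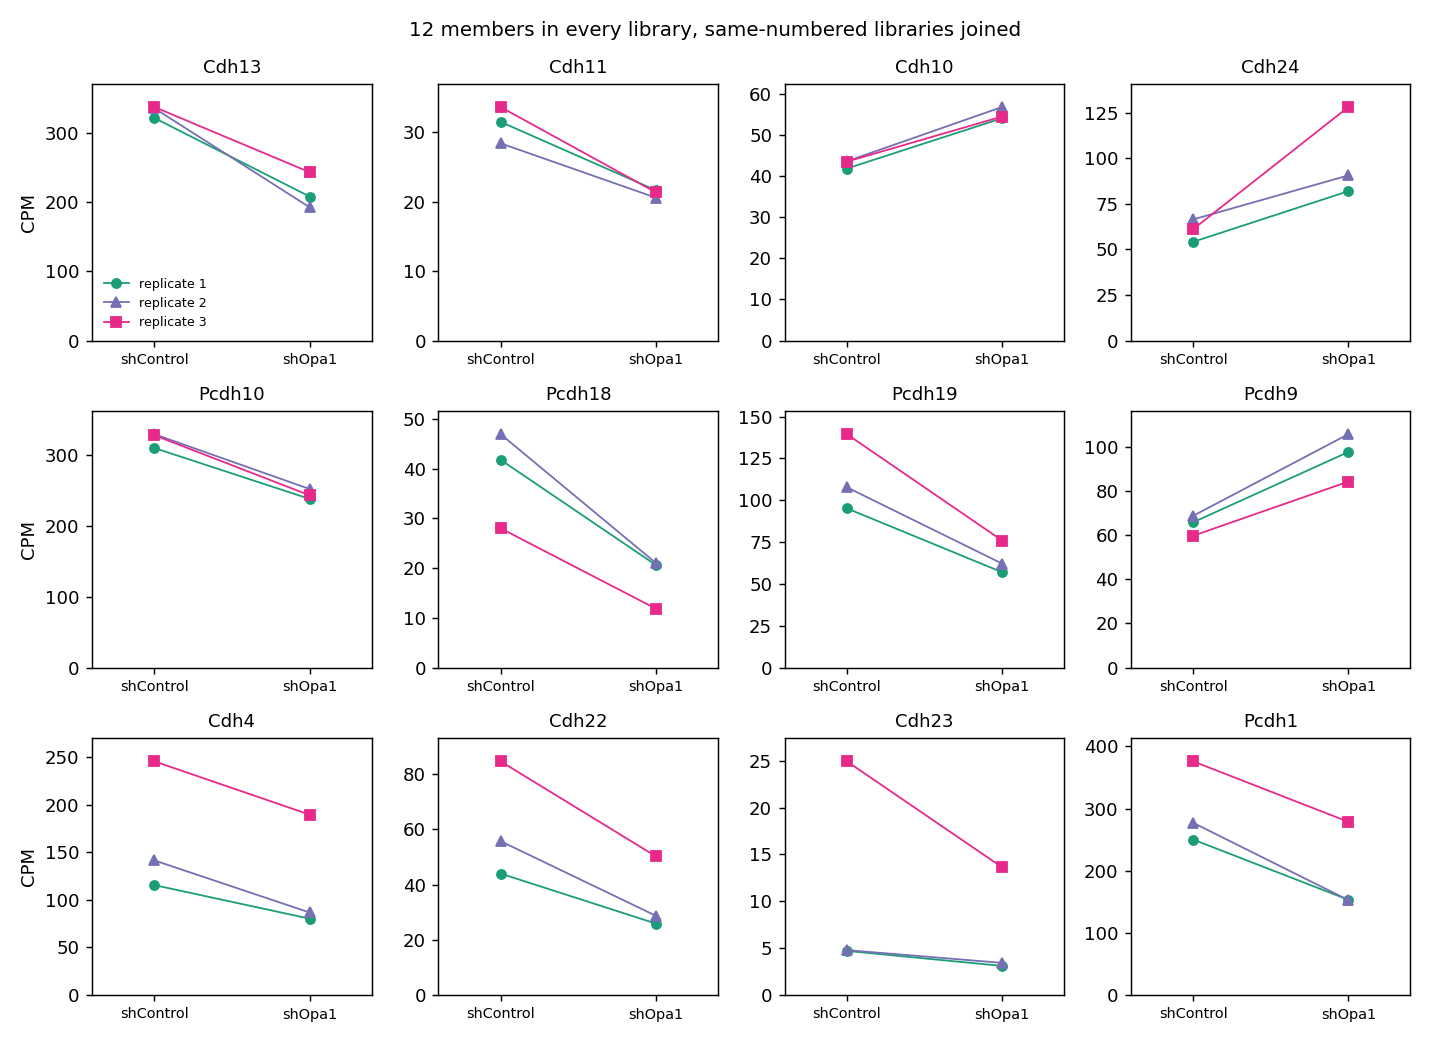
CPM of 12 members in every library, on linear axes that start at 0, with libraries of the same replicate number joined. In the upper and middle rows the groups do not overlap; in the lower row (Cdh4, Cdh22, Cdh23 and Pcdh1) replicate 3 lies above both other replicates in each group and each pair falls.

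Among the 11 non-clustered protocadherins tested, Pcdh9 rose and Pcdh10, Pcdh18 and Pcdh19 fell, and 7 did not pass the test. All 3 genes that fell belong to the delta-2 group, which has 5 members, and Pcdh9 belongs to delta-1. The median log2 fold change was -0.40 over the 5 delta-2 genes and 0.07 over the 4 delta-1 genes. Called lower were thus 60.0% of delta-2 genes and 0 of delta-1, beside 20.0% of all tested genes. The block called 4 delta-2 genes lower, and 1 delta-1 gene lower and 1 higher, beside 30.7% lower and 28.8% higher of all genes. The summed delta-2 level was 791 ± 80.2 CPM in shControl against 589 ± 26.3 CPM in shOpa1 (± SD, 3 libraries each). The summed delta-1 level was 608 ± 78.7 against 549 ± 68.2 CPM, with overlapping spreads and a lower sum in shOpa1 in each of the 3 pairs. No test between the groups was run.

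Pcdh10 (OL-protocadherin, ENSMUSG00000049100, chr3:45378398-45435623 on the plus strand) recruits the WAVE complex and takes part in axon growth and in synapse elimination. It stood at 309.6, 329 and 328 CPM in shControl and 238, 252 and 243 CPM in shOpa1. The groups were far apart relative to their spread. It was 1.32-fold lower (log2 fold change -0.40 ± 0.06 SE, edgeR adjusted p = 0.00158).

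Pcdh19 (ENSMUSG00000051323, chrX:133582860-133688987 on the minus strand), whose human counterpart is mutated in an epilepsy that mainly affects heterozygous females, binds N-cadherin. It stood at 95.2, 108 and 139.5 CPM in shControl and 57.0, 62.2 and 76.0 CPM in shOpa1. Replicate 3 was the highest library of each group and the groups did not overlap. It was 1.75-fold lower (log2 fold change -0.81 ± 0.16 SE, edgeR adjusted p = 0.00802, and 0.0512 without the low-count filter).

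Pcdh18 (ENSMUSG00000037892, chr3:49743296-49757325 on the minus strand), known to bind the adaptor protein Dab1, stood at 41.8, 46.9 and 28.0 CPM in shControl and 20.6, 21.0 and 11.9 CPM in shOpa1. Here replicate 3 was the lowest library of each group, and the groups still did not overlap. It was 2.18-fold lower (log2 fold change -1.12 ± 0.28 SE, edgeR adjusted p = 0.0196, and 1.25e-07 with the block). Without shControl replicate 1 or without shControl replicate 2 it was not called, with an edgeR adjusted p of up to 0.0606, nor without the low-count filter (0.107).

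Pcdh17, a delta-2 gene that acts with WAVE at axons and at presynaptic sites (chr14:84443563-84539002 on the plus strand), stood at 175, 188 and 251 CPM in shControl and 151, 154 and 166 CPM in shOpa1. The groups did not overlap, but the unblocked test was not passed (log2 fold change -0.38, edgeR adjusted p = 0.0561, and 0.00121 with the block). DESeq2 without a block called it lower (adjusted p = 0.0373). Pcdh8 (arcadlin), which is induced by neuronal activity and promotes removal of N-cadherin from synapses, had the smallest change of the delta-2 genes. Its shControl values of 93.0, 111 and 129 CPM overlapped the shOpa1 values of 94.3, 105 and 115 CPM (log2 fold change -0.08).

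Pcdh9 (ENSMUSG00000055421, chr14:93013410-93890679 on the minus strand), a delta-1 protocadherin with widespread expression in neurons, stood at 65.8, 68.7 and 59.7 CPM in shControl and 97.6, 106 and 84.2 CPM in shOpa1. All shOpa1 libraries lay above all shControl libraries. It was 1.48-fold higher (log2 fold change 0.57 ± 0.10 SE, edgeR adjusted p = 0.0039).

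Pcdh1, the most abundant delta-1 gene, stood at 250.1, 277 and 376 CPM in shControl and 153, 153 and 279 CPM in shOpa1. Each pair was lower in shOpa1, but shOpa1 replicate 3 lay above shControl replicates 1 and 2. The edgeR adjusted p was 0.121 without the block and 8.26e-05 with it (log2 fold changes -0.63 and -0.67), and DESeq2 without a block gave an adjusted p of 0.0352. Pcdh11x and Pcdh7 of the same group, and Pcdh15 and Pcdh20, were not called in either fit, with log2 fold changes from -0.03 to 0.14.

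A fixed 7-base sequence, GAAACTA, was looked up on the mRNA strand in the longest 3′ UTR of each gene. It had been picked out earlier from these same fold changes for its link with lower levels, so its counts are a description. It occurred in 1334 of 13850 tested genes with a UTR (9.63%), of which 50.3% fell and 8.02% rose. The other 12516 genes had 18.7% lower and 22.1% higher calls. Among members 9 of 50 held 1 copy each, and 5 of them were called lower and 0 higher (Pcdh10, Pcdh18, Pcdhb5, Pcdhb9 and Pcdhb20). Of the 41 without it, 7 were called lower and 3 higher. Carriers had a longer median UTR, 1971 bases against 1328.

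The sequences of the 6 members that carry it outside the beta cluster are given as reference sequence around the match, to show what surrounds it. Each is read 5′ to 3′ on the mRNA strand from GENCODE transcripts (GRCm38) with 10 bases on either side, and capitals mark the match.
Pcdh18: acttataaacGAAACTAaacggtgaat
Pcdh10: cttttataaaGAAACTAtaaattcaca
Pcdh17: aatgagcataGAAACTAtgatttatga
Pcdh15: gccattagtaGAAACTAaacaaaatgg
Cdh8: ggagaaaataGAAACTAggtgctctaa
Cdh7: agtagaaaaaGAAACTAaacactgaaa

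The Pcdh18 match lies at chr3:49743860-49743866 on the minus strand, bases 1403 to 1409 of a UTR of 1971 bases. The Pcdh10 match lies at chr3:45420398-45420404, bases 972 to 978 of 4285, and the Pcdh17 match at chr14:84537769-84537775, bases 4212 to 4218 of 5445, both on the plus strand. Of these 3 delta-2 genes, Pcdh10 and Pcdh18 fell, and Pcdh17 was called by edgeR with the block and not without it. The Pcdh15 match (chr10:74647242-74647248, plus strand), the Cdh7 match (chr1:109996126-109996132, plus strand) and the Cdh8 match (chr8:99222204-99222210, minus strand) belong to genes that were not called in the unblocked fit. Cdh8, a type II cadherin, stood at 57.1, 55.4 and 70.0 CPM in shControl and 55.7, 52.5 and 50.1 CPM in shOpa1 (log2 fold change -0.20, edgeR adjusted p = 0.152). Pcdh19, Cdh11 and Cdh13 fell without holding the sequence in the UTR examined.

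**Figure D3:**
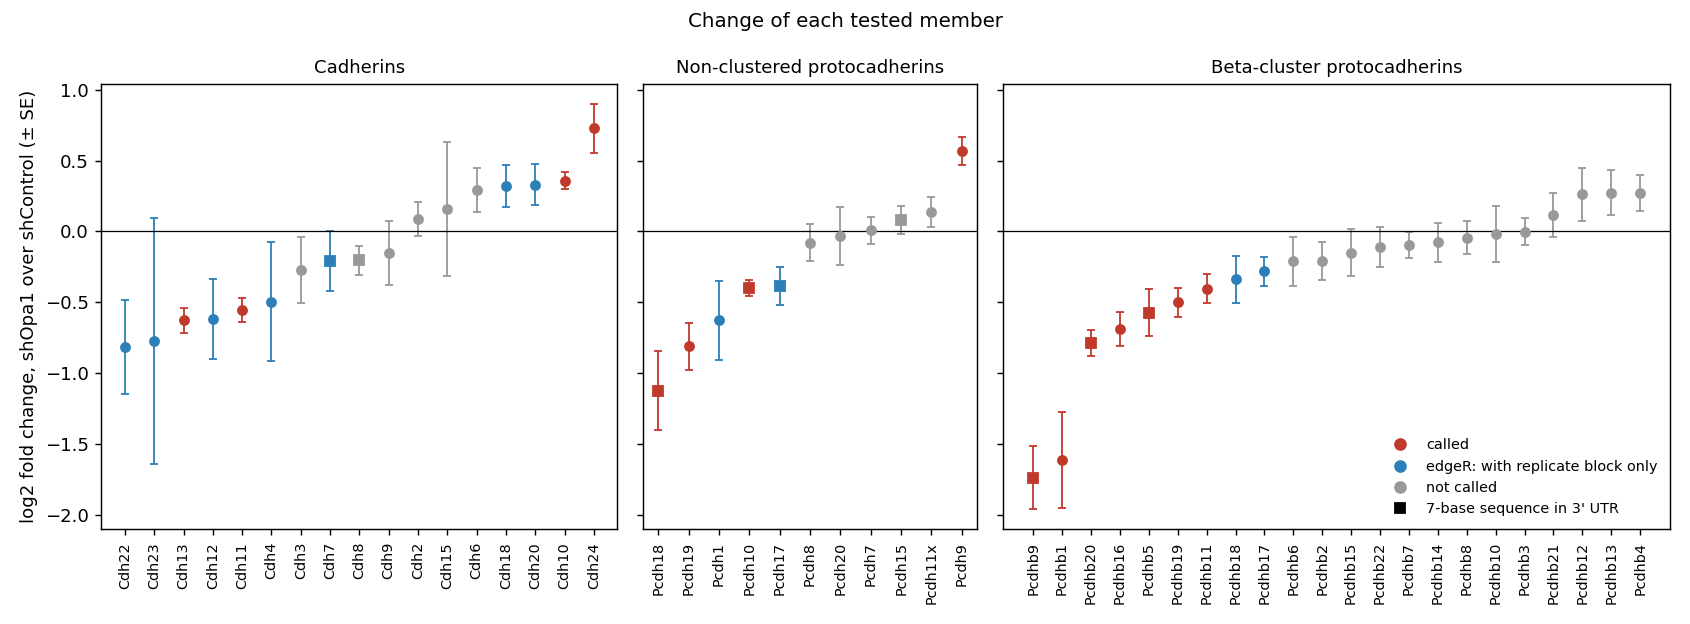
Log2 fold change of shOpa1 over shControl for the 50 tested members, with bars of 1 SE from edgeR and genes ordered by value within their class. Red marks the 15 called members, blue the 11 called by edgeR with the replicate block and not without it, grey the others, and squares the 9 with the 7-base sequence in the 3′ UTR; no beta-cluster gene is called higher.

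In the beta cluster 7 of 22 genes were called lower (31.8%) and 0 higher, beside background shares of 20.0% and 18.9%. At an unadjusted p under 0.05 edgeR also gave 0 higher, and so did DESeq2 and the blocked fit at an adjusted p under 0.05. The block added Pcdhb17 and Pcdhb18, both lower (edgeR adjusted p = 0.0658 and 0.148 without and 0.00606 and 0.0148 with it). The median log2 fold change was -0.18, with 18 genes negative and 4 positive, and the pair medians were -0.13, -0.18 and -0.22. The summed level was 223, 248 and 242 CPM in shControl and 189, 193 and 198 CPM in shOpa1, with no overlap.

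Pcdhb9 changed most of all members on the log2 scale. It stood at 16.2, 25.3 and 16.6 CPM in shControl and 5.32, 7.10 and 4.98 CPM in shOpa1. The groups did not overlap, and replicate 2 was the highest in both. It was 3.34-fold lower (19.4 ± 5.11 against 5.80 ± 1.14 CPM, SD, n = 3; log2 fold change -1.74 ± 0.22 SE, edgeR adjusted p = 0.00111). Its share of all beta-cluster counts went from 8.09 ± 1.81% to 3.00 ± 0.60%.

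Pcdhb20 stood at 17.6, 20.5 and 18.9 CPM in shControl and 11.0, 11.3 and 10.7 CPM in shOpa1. The groups lay well apart. It was 1.73-fold lower (log2 fold change -0.79 ± 0.09 SE), with the smallest edgeR adjusted p of the called members, 0.000813. Pcdhb16 stood at 10.8, 12.1 and 12.4 CPM against 7.19, 8.12 and 6.63 CPM (log2 fold change -0.69 ± 0.12 SE, edgeR adjusted p = 0.00402).

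Pcdhb19 fell from 13.7, 15.0 and 13.6 CPM to 9.31, 10.8 and 9.78 CPM (log2 fold change -0.50, edgeR adjusted p = 0.00762). Pcdhb11 fell from 10.52, 11.55 and 11.16 CPM to 8.03, 8.97 and 8.13 CPM (log2 fold change -0.40, edgeR adjusted p = 0.0186). Pcdhb5 fell from 8.64, 8.37 and 7.12 CPM to 6.57, 4.82 and 4.83 CPM (log2 fold change -0.57, edgeR adjusted p = 0.0303). In all 3 the groups did not overlap, yet Pcdhb11 lost its call without shControl replicate 2 or shOpa1 replicate 1, with an edgeR adjusted p of up to 0.0706, and without the low-count filter (0.0510). Pcdhb5 lost it without any 1 of shControl replicates 1 and 2 or shOpa1 replicates 2 and 3, with an edgeR adjusted p of up to 0.109.

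Pcdhb1, the first gene of the cluster, was the least abundant, with 5 to 23 counts per library. It stood at 0.587, 0.859 and 0.816 CPM in shControl and 0.161, 0.321 and 0.245 CPM in shOpa1. The groups did not overlap, and the log2 fold change was -1.62 ± 0.34 SE (edgeR adjusted p = 0.00845), on few counts.

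Other abundant beta genes were not called in either fit. Pcdhb3 stood at 18.5, 21.5 and 19.6 CPM in shControl and 18.2, 20.9 and 20.3 CPM in shOpa1. Pcdhb22 stood at 21.9, 19.3 and 24.1 CPM against 19.7, 17.1 and 23.8 CPM, and Pcdhb7 at 16.9, 18.7 and 20.2 CPM against 17.6, 17.6 and 17.1 CPM. The groups overlapped in each. As a share of beta-cluster counts Pcdhb22 went from 9.17 ± 1.21% to 10.4 ± 1.58%, with overlapping libraries (SD, n = 3). Pcdhb3 went from 8.34 ± 0.28% to 10.2 ± 0.59%. A share also rises where other genes of the cluster fall. Mean levels did not rise, at 21.8 and 20.2 CPM for Pcdhb22 and 19.9 and 19.8 CPM for Pcdhb3 in shControl and shOpa1. The highest log2 fold changes in the cluster were 0.27 for Pcdhb4 and Pcdhb13 and 0.26 for Pcdhb12, none called. Pcdhb4 did not overlap between groups (4.36, 4.52 and 4.26 CPM against 5.06, 5.23 and 5.59 CPM, edgeR adjusted p = 0.13).

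**Figure D4:**
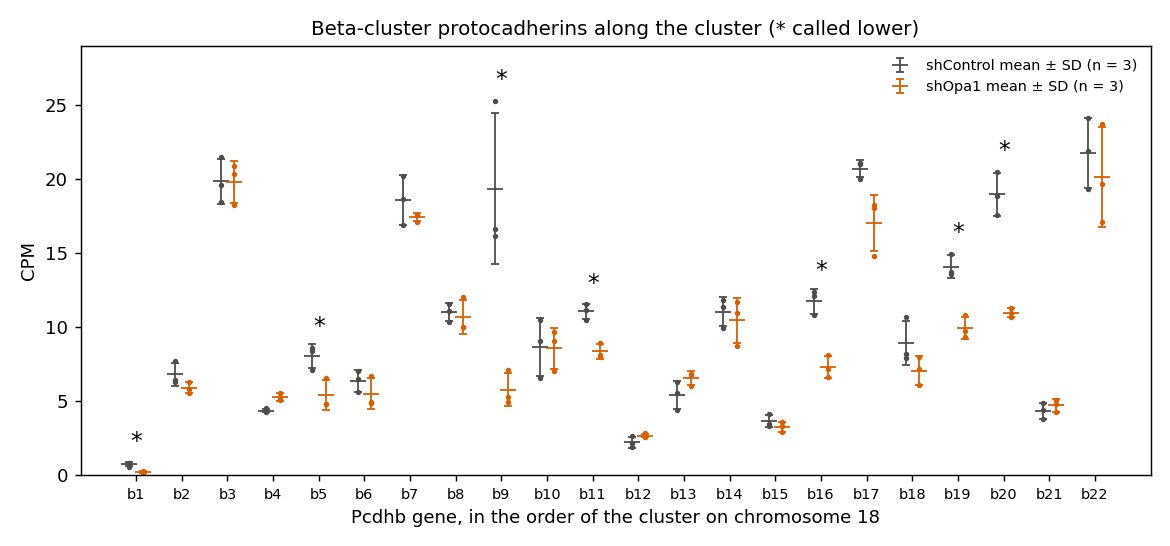
CPM of the 22 beta-cluster genes in the order of the cluster, on a linear axis from 0. Points are libraries, horizontal marks the mean and bars the SD (n = 3), and asterisks mark the 7 genes called lower, which are spread along the cluster, with Pcdhb19 and Pcdhb20 next to each other; Pcdhb9 has means of 19.4 CPM in shControl and 5.80 in shOpa1.

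Beta-cluster genes resemble each other, which can split or discard reads. Among the beta genes, 21 of 22 had stretches of 50 bases also present in another member, up to 12.0% of their length, and 8.75% for Pcdhb9 and 5.47% for Pcdhb20. Pcdhb1 had none, and no member outside the cluster had any. Stretches shared with genes outside the members were not looked for, so these shares set no upper limit on the uncertainty of the values. Counting was not set to use strand, so reads cannot be told apart where exons of 9 members overlap another gene. That overlap covers 63.5% of Pcdhb12 and 21.1% of Pcdh7 and at most 9.67% of any other, and of the called members it touches Pcdh10 alone (0.969%).

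Across the classes, 11.8% of cadherins tested, 27.3% of non-clustered protocadherins and 31.8% of beta-cluster genes were called lower, and 11.8%, 9.09% and 0 were called higher. The background was 20.0% lower and 18.9% higher. Median log2 fold changes were -0.20, -0.08 and -0.18. With the block, 41.2%, 45.5% and 40.9% were called lower, beside 30.7% of all genes. In that fit 23.5%, 9.09% and 0 were called higher, beside 28.8% of all genes. No test between the classes was run. Groups did not overlap for 19 members, 15 lower and 4 higher, beside 51.8% of all genes (26.0% lower and 25.8% higher). The authors' deposited table gives 25 members an adjusted p under 0.05, 6 higher and 19 lower, with a background of 40.9%, and these include all 15 members called here with the same sign. Its standard errors lay far below those of unblocked DESeq2 here for Cdh23 (0.164 against 1.02) and Cdh4 (0.0855 against 0.532). For Pcdhb1 they did not (0.625 against 0.574). The designs may therefore differ, and the blocked fit here called 26 members.

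Among catenins and other junction partners, 9 of 15 genes tested were called lower and 0 higher, with a median log2 fold change of -0.51, where 20.0% of all genes were called lower and 18.9% higher. The block gave 13 lower and 1 higher, where 30.7% and 28.8% of all genes were called. The same background shares apply to the lists that follow. Ctnna2, the alpha-catenin of neurons that ties cadherins to actin, fell from 300.0 ± 17.8 to 123 ± 1.03 CPM (SD, n = 3; log2 fold change -1.29). Jup, plakoglobin, fell from 99.2 ± 8.41 to 36.8 ± 2.82 CPM (-1.43). Nectin3, an adhesion receptor that works beside cadherins, and Ctnna1, the widely expressed alpha-catenin, fell by 0.88 and 0.78 on the log2 scale. Ctnnb1, beta-catenin, was not called without the block (546 ± 46.2 against 504 ± 57.9 CPM, log2 fold change -0.12, edgeR adjusted p = 0.39) and was called lower with it (0.0256).

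Of 11 genes of the WAVE complex and the kinases FAK and PYK2, 6 were called lower and 1 higher, with a median log2 fold change of -0.39, and all 11 were called with the block, 8 lower and 3 higher. Abi2, a WAVE subunit, fell from 213 ± 23.8 to 73.9 ± 1.53 CPM (SD, n = 3; log2 fold change -1.53), and Wasf3, a WAVE protein, from 140 ± 12.9 to 64.9 ± 0.76 CPM (-1.11). Cyfip2, another subunit of the complex, rose from 409 ± 20.7 to 600.2 ± 43.8 CPM (0.55). Wasf2 fell by 0.88 on the log2 scale from a low level.

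Of 9 proteases that cleave cadherins, 3 were called lower and 0 higher (3 and 3 with the block), namely the gamma-secretase subunits Aph1b (log2 fold change -0.63), Psenen (-0.46) and Ncstn (-0.26). Psenen lost its call in 5 of the fits that left out 1 library (edgeR adjusted p of up to 0.130). Of 14 regulators of chromatin at the protocadherin clusters, 4 were called higher and 1 lower (5 and 2 with the block). Stag2 (0.45), Pds5a (0.36), Smchd1 (0.34) and the CTCF gene Ctcf (0.21) rose and the cohesin subunit Rad21 fell (-0.30). Ctcf lost its call whichever library was left out (edgeR adjusted p of up to 0.109). Smchd1 lost it without shControl replicate 1 or 2, and Rad21 without shOpa1 replicate 2. Of 19 genes tested in a list of other cadherin superfamily genes, 6 were called lower and 0 higher without the block. With the block, 10 were called lower and 2 higher (Fat1 and Dsc1). The list also held Fjx1, which is not itself a cadherin. The 6 included Clstn1, a calsyntenin that guides transport in axons (1394 ± 119 to 1004 ± 88.7 CPM, SD, n = 3; log2 fold change -0.47), and the receptor Ret (35.3 ± 7.78 to 14.3 ± 2.30 CPM; -1.30). They also included Dchs1, a giant cadherin of planar polarity (-0.57), and Fjx1 (-0.47).

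The summed level of 7 neuron markers was 6589 to 6917 CPM in shControl and 4255 to 4658 CPM in shOpa1. Of these, Tubb3, Map2, Snap25, Syt1 and Dcx were called lower, Nefl higher, and Rbfox3 was called lower with the replicate block (edgeR adjusted p = 0.139 without and 1.56e-05 with it) and by DESeq2 (adjusted p = 0.0496). Map2 lost its call in 4 of the fits that left out 1 library (edgeR adjusted p of up to 0.0933). Astrocyte markers summed to 24.6, 35.8 and 88.4 CPM in shControl and 11.7, 17.5 and 34.2 CPM in shOpa1, lower in each pair. Of 6 tested, Gja1 and S100b were called lower and Gfap higher at 1.77 CPM or less, and the block added Aqp4, Aldh1l1 and Slc1a3 as lower. Gfap lost its call in 5 of the fits that left out 1 library (edgeR adjusted p of up to 0.116), and DESeq2 did not call it (adjusted p = 0.0839). Slc1a3, an astrocyte transporter, was highest in replicate 3 of each group (15.2, 22.8 and 61.8 CPM in shControl and 5.90, 8.79 and 19.0 CPM in shOpa1). Aqp4 and Aldh1l1 also peaked there in both groups, while Gfap, Gja1 and S100b did not. Of the neuron markers, Tubb3, Map2 and Rbfox3 peaked there in both groups, while Snap25, Syt1, Dcx and Nefl did not. Microglial markers summed to at most 8.09 CPM and endothelial markers to at most 8.38 CPM, with Cldn5 at 0.04 CPM or less. Oligodendrocyte-lineage markers summed to 32.4 to 60.3 CPM in shControl and 31.2 to 46.8 CPM in shOpa1, with Sox10 at 0 in all shControl libraries. Fibroblast and mural markers summed to 10.1 to 21.7 CPM and 6.80 to 53.3 CPM, and markers of dividing progenitors to 44.7 to 90.2 CPM and 34.0 to 66.9 CPM. The part of these levels in the members' changes was not tested.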

How the data were processed

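Raw read counts per gene were made by the authors with featureCounts 1.6.0 on Ensembl release 99 models of GRCm38, per the file headers, with no strand option in the recorded command. HISAT2, DESeq2 and mm10 are named without versions in the submitters' processing notes. The authors' deposited comparison table holds a log2 fold change and a p-value per gene, beside a normalised signal, the counts after division by a size factor, which was not used for any result. Counts were tested with edgeR 4.0.16 (R 4.3.3) with TMM scaling, filterByExpr, robust dispersions, quasi-likelihood testing and Benjamini-Hochberg adjustment at 0.05 over all 16562 genes tested. Standard errors are the log2 fold change over the square root of its F statistic. Pair differences used log2(CPM + 0.5). Of 55471 identifiers, 55144 were paired with a symbol, and 0 count columns lacked a sample. Libraries of 1 group differed by more than counting noise (chi-square per degree of freedom 6.11 to 30.8). Every library's deviation from its group mean correlated best with that of the same number in the other group, the hint on which pairing rests. The longest 3′ UTR of at least 50 bases came from GENCODE release M21. All members may be named by rule; in other lists up to 4 genes with the smallest p. Ctcf, Ctnnb1, Slc1a3 and the marker genes named were chosen after their values were seen. The members, lists and tests were chosen with earlier results of these data known. Alternatives were RLE and upper-quartile scaling, DESeq2 1.42.0, limma-voom 3.58.1, no low-count filter, the replicate block, replicate 3 as a second batch, pairs 1 and 2 alone and each library left out. The fits were tested on simulated data.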

Additional observations from a re-analysis of the deposited data

How the results depend on the processing

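Replicate pairing is a hint from the data that the labels do not state. The library codes carry the same letter (A, B or C) in both groups at each replicate number, without saying what it stands for. With the block 4770 genes were called higher and 5081 lower over all genes, 5 and 21 among members, 4 and 7 among cadherins, and 5 lower among non-clustered protocadherins. Replicate 3 as a second batch gave 5 and 20 among members, 4 and 6 among cadherins and 5 lower among non-clustered protocadherins. Pairs 1 and 2 alone gave 7 and 19, 5 and 6, and 2 and 5 for members, cadherins and non-clustered protocadherins. DESeq2 gave 5 non-clustered genes lower, and testing without a low-count filter gave 1 cadherin higher and 1 non-clustered gene lower, with Cdh24, Pcdh18, Pcdh19 and Pcdhb11 no longer called. Under upper-quartile scaling the median log2 fold change was -0.16 for cadherins and -0.033 for non-clustered protocadherins.

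No called member changed sign under any alternative run. Apart from the fits that left out 1 library, given below, members not called that changed sign had values near 0. With upper-quartile scaling these were Pcdhb10 0.0275, Pcdhb3 0.0429, Pcdhb8 0.000922 and Pcdh20 0.0126. DESeq2 gave Pcdhb3 0.0068, limma-voom gave Cdh15 -0.00213, and testing with no filter gave Pcdhb3 0.000677. Pairs 1 and 2 alone gave Pcdhb15 0.0284, Cdh15 -0.00589 and Pcdh7 -0.0923. The cause was not tested.

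With each library left out in turn, members called higher ranged from 2 to 5 and lower from 9 to 14, cadherins higher from 1 to 4, non-clustered higher from 1 to 2 and beta genes lower from 5 to 7. Medians ranged from -0.20 to -0.0803 for all members, -0.27 to -0.0376 for cadherins, -0.19 to -0.0859 for non-clustered protocadherins and -0.20 to -0.12 for the beta cluster. Members with a sign change ranged from -1.82 to 0.50 for Cdh23, whose positive value came without shControl replicate 3, -0.27 to 0.53 for Cdh15, -0.37 to 0.00242 for Cdh9, -0.0679 to 0.0995 for Pcdh7, -0.19 to 0.13 for Pcdh20, -0.19 to 0.13 for Pcdhb10, -0.0551 to 0.0532 for Pcdhb3, -0.19 to 0.0442 for Pcdh8, -0.16 to 0.0303 for Pcdhb14, -0.00511 to 0.14 for Pcdh15, -0.14 to 0.00067 for Pcdhb8 and -0.0245 to 0.18 for Cdh2. Counts of 5 to 34 per library limit Pcdhb1, Cdh3 and Cdh15.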
